A study of Homo sapiens with 18 samples.

Results

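The comparison described here is of 786-O cells carrying hairpin sh50 against USP13 with 786-O cells carrying a control hairpin (shCtrl). The members were chosen from the sample titles and the hairpin label: 3 sh50 libraries and the 3 control libraries of the USP13 experiment, 6 of the 18 libraries in the series. 786-O is an established clear-cell renal carcinoma line without functional VHL, the protein that marks hypoxia-inducible factors for destruction, and both groups share this background. The protocols describe USP13 hairpins in a doxycycline-inducible vector with puromycin resistance, without saying whether these libraries came from it or received doxycycline, and neither the time after hairpin delivery nor the selection is given in the labels. The sh50 group is a single hairpin in a single line, and the labels do not say whether the 3 libraries of a group came from separate cultures, so the tests' p-values reflect only differences among these libraries, and that spread may be technical. The other groups of the series were 3 libraries with a different USP13 hairpin, sh52, and 9 libraries of an experiment on ZHX2, and their values are given only where named. The sh52 libraries also enter the estimate of the spread behind every test.

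USP13 is a deubiquitinating enzyme: it removes ubiquitin chains from proteins and so can change how long they persist. Proteins described as its substrates or partners include STING1 in the interferon response, MCL1 in cell survival, ACLY in lipid synthesis and ZHX2, a transcription factor with zinc fingers and homeodomains that the series title gives beside USP13. The measurements here are of mRNA, which shows neither enzyme activity nor protein stability.

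RNA was sequenced from libraries that do not mark the strand of the transcript. The total estimated count was 12657543 to 15990217 in the control libraries and 11192561 to 16511290 in the sh50 libraries. Levels are given as counts per 1000000 counts of a library (CPM) after scaling for composition, and a log2 change of 1 is a doubling. The share of counts from mitochondrial ribosomal RNA was 2.54% to 2.70% in the control and 4.11% to 4.43% under sh50; its part in the results below was not tested, and leaving these genes out before scaling gave 2955 calls in place of 2942. Markers of the tumour type were mostly present, with 12 of 14 high enough to test. PAX8, a renal lineage factor, measured 472, 477 and 516 CPM in the control and 539, 538 and 514 CPM under sh50. The exceptions were CA9 and NDUFA4L2, which were under 1 CPM in all 6 libraries. Of the 12 markers tested, 9 were lower and 2 higher under sh50 by the test described below. Among all genes the shares were 11.3% and 10.2%. Of 16 leukocyte markers, 15 were under 1 CPM in all 6 libraries and 4 were at 0; the exception was CD68, a lysosomal protein. Of 12 endothelial markers, 10 were under 1 CPM and 5 were at 0. In bulk RNA, fewer cells of a type and less RNA per cell cannot be told apart. The sh52 library of replicate 1 lay apart from the other libraries on the second principal component, at -35.7 against -2.84 and -7.03 for the other sh52 libraries.

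The hairpin sequences are shown first because they name what was targeted. The groups come from the sample titles, and the sequences are those that the protocol in the labels gives under the names sh50 and sh52. The same protocol gives other numbers for purchased USP13 hairpins, so the match of sequence to library rests on the name alone. The target sequences follow, with the 7 bases that would pair with bases 2 to 8 of the guide strand (the seed) in capitals.
sh50: cgcctgatgaaccAATTGATa
sh52: ccggtgaaatctgAACTCATt
The sh50 target matched chr3:179757054-179757074 (GRCh38, plus strand), in coding exon 16 of 21 of USP13. The sh52 target matched chr3:179730662-179730682, in coding exon 10 of 21. Neither 21-base sequence matched any other gene among 123256 transcripts of 13387 genes searched. The longest runs that other genes shared with the sh50 target were 15 bases in ASNSD1 and in USP48, which measured log2 changes of 0.12 and -0.04 under sh50 and did not pass the test (edgeR, adjusted p = 0.384 and 0.686).

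USP13 stood at 36.9, 34.7 and 31.8 CPM in the 3 control libraries and 16.8, 17.1 and 20.5 CPM with sh50. All 3 sh50 libraries lay far below the lowest control library. The mRNA fell by 0.92 in log2 units (SE 0.11, edgeR adjusted p = 6.31e-07). It measured 14.8, 18.1 and 17.9 CPM under sh52, and the log2 difference of sh50 from sh52 was 0.11 (SE 0.11, edgeR adjusted p = 0.612), which did not pass. USP5, the closest relative of USP13, measured 78.3, 82.7 and 80.5 CPM in the control and 85.8, 85.8 and 85.9 CPM under sh50 (log2 change 0.09, SE 0.06, edgeR adjusted p = 0.316). Its 3 sh50 libraries were above the 3 control libraries by less than the test required.

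Of 13708 genes tested, 2942 had an adjusted p under 0.05 under sh50 (21.5%; edgeR's quasi-likelihood test). They were 1395 higher (10.2%) and 1547 lower genes (11.3%). Each list count below is to be read beside these shares of all genes. In the text below a gene is said to have risen or fallen only if it passed this test. Most changes were small: 81.7% of the genes that rose and 82.6% of those that fell did so by less than 1.5-fold, and 49 rose and 86 fell by more than 2-fold. The median log2 change of all genes was 0.003, and their 5th and 95th percentiles were -0.50 and 0.52. Genes that rose made up 17.3% of the control counts and 22.1% of the sh50 counts, and genes that fell made up 27.6% and 22.2%. Without overlap of the 3 sh50 and 3 control libraries were 1333 of the genes that rose and 1494 of those that fell, against 38.2% of all genes tested. The calls were made from the same libraries, so this count is not separate evidence for them. The number of genes that rose depended on the control libraries: it was 903 without control replicate 1 and 913 without control replicate 2.

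**Figure D1:**
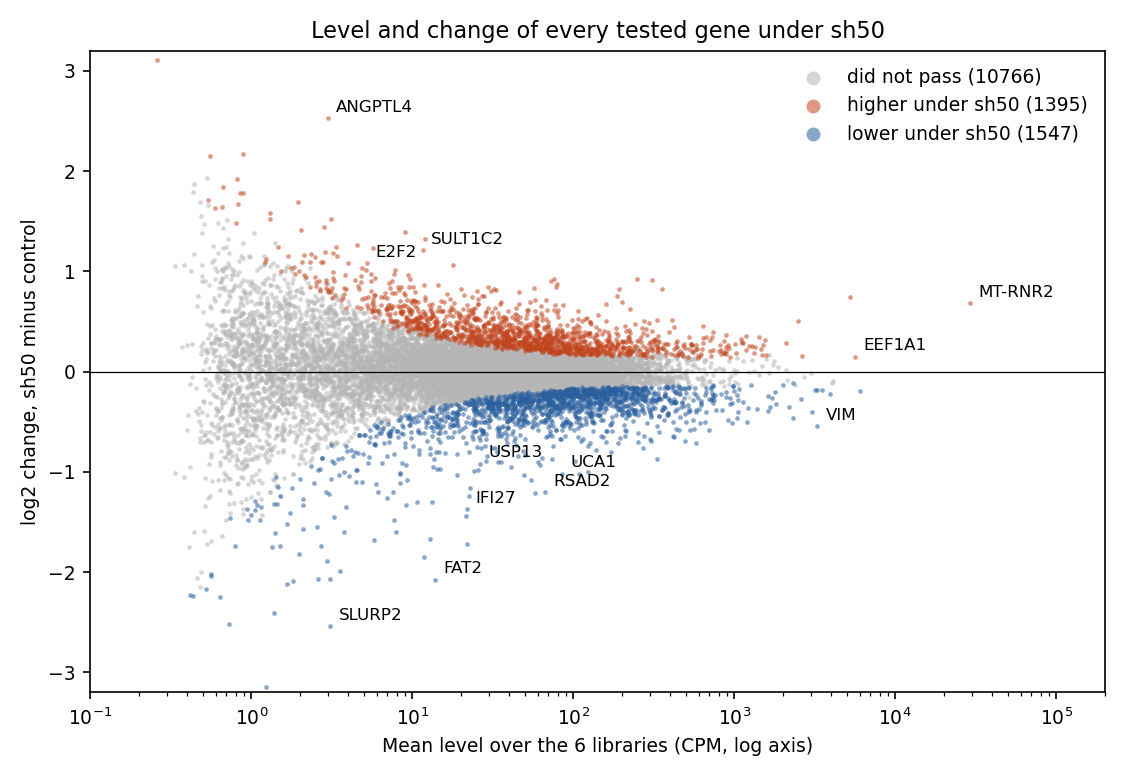
Each point is a gene, placed by its mean level in the 6 libraries (CPM, log axis) and its log2 change of sh50 from control, coloured by whether it rose, fell or did not pass. Calls reach smaller changes at higher levels, and the changes past 2-fold are more often downward (86 genes) than upward (49 genes).

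Both hairpins were set against the same control libraries, so their changes from control share those libraries and are given side by side only. The direct comparison of sh50 with sh52 takes its log2 differences from the levels of the sh50 and sh52 libraries, while the control libraries enter its estimate of the spread and the scaling. It called 1401 genes (10.2%), 649 higher (4.73%) and 752 lower (5.49%) under sh50, and the total was 838 without sh50 replicate 1 and 684 without sh50 replicate 2. Of the genes that rose under sh50, 356 (25.5%) were also higher than under sh52, and of those that fell, 494 (31.9%) were also lower. For 16 genes that rose and 9 that fell, the direct comparison passed the other way, that is, the change was larger under sh52. The difference in USP13 mRNA between the hairpins, given above, did not pass the test.

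The largest rise among genes with a mean of 5 CPM or more in at least the higher group was that of ANGPTL4, a secreted inhibitor of lipoprotein lipase. It stood at 1.01, 0.877 and 0.717 CPM in the 3 control libraries and 5.37, 5.65 and 4.26 CPM with sh50. It rose by 2.53 in log2 units (SE 0.28, edgeR adjusted p = 3.67e-07), and its difference from sh52 did not pass (0.53). AMY2B, an amylase, stood at 6.62, 7.46 and 6.38 CPM in the 3 control libraries and 17.7, 17 and 16.8 CPM with sh50. Every sh50 value was more than double every control value, and the gene rose by 1.32 in log2 units (SE 0.14, edgeR adjusted p = 1.32e-07) and was also higher than under sh52 by a log2 difference of 0.80 (SE 0.13, edgeR adjusted p = 0.000225). RCAN2, an inhibitor of calcineurin, stood at 2.73, 2.94 and 2.31 CPM in the 3 control libraries and 5.19, 6.87 and 7.03 CPM with sh50. It rose by 1.26 in log2 units (SE 0.24, edgeR adjusted p = 0.000312), and measured 2.69, 3.63 and 2.15 CPM under sh52. SULT1C2, a sulfotransferase, stood at 7.09, 5.83 and 8.21 CPM in the 3 control libraries and 14.6, 17.1 and 16.8 CPM with sh50 (log2 change 1.22, SE 0.15, edgeR adjusted p = 1.14e-06). GPRC5C, an orphan receptor, stood at 11.1, 11.6 and 11.8 CPM in the 3 control libraries and 25.7, 24.5 and 22.5 CPM with sh50 (log2 change 1.07, SE 0.11, edgeR adjusted p = 7e-08). GNB3, a G-protein subunit, and CELF6, an RNA-binding splicing regulator, were higher than control by 0.97 and 0.89 on the log2 scale and higher than sh52 by 0.80 and 0.97. The 15 genes with the largest rises also held NPIPB13 and NPIPB11, members of a family of near-identical copies whose reads are divided by estimation, and EMC3-AS1, an antisense gene whose reads cannot be told from those of its partner.

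The genes described next had some of the largest falls or also differed between the hairpins. S100A2, a calcium-binding protein of epithelia, stood at 27.3, 36.9 and 36.5 CPM in the 3 control libraries and 11.5, 11.6 and 7.69 CPM with sh50. It fell by 1.72 in log2 units (SE 0.17, edgeR adjusted p = 6e-08), with no overlap although the 3 control values differed among themselves. IL7R, the receptor of the cytokine interleukin 7, stood at 4.99, 7.08 and 5.18 CPM in the 3 control libraries and 0.715, 1.02 and 2.4 CPM with sh50. It fell by 1.99 in log2 units (SE 0.31, edgeR adjusted p = 3.63e-05). TSPAN1, a tetraspanin of the epithelial surface, stood at 32.7, 31.1 and 30.6 CPM in the 3 control libraries and 14, 10.2 and 10.9 CPM with sh50. It fell by 1.44 in log2 units (SE 0.11, edgeR adjusted p = 1.07e-09), and its log2 difference from sh52 was -0.80 (SE 0.12, edgeR adjusted p = 4.37e-05). CTSS, a lysosomal protease used in antigen processing, stood at 14.6, 15.7 and 15.2 CPM in the 3 control libraries and 7.33, 5.65 and 5.71 CPM with sh50, and measured 14.8, 12.5 and 14.1 CPM under sh52. The sh52 values were close to the control values and the sh50 values far below both; the log2 difference of sh50 from sh52 was -1.17 (SE 0.14, edgeR adjusted p = 4.53e-06). UCA1, a long non-coding RNA, stood at 116, 116 and 108 CPM in the 3 control libraries and 56, 57.2 and 54.8 CPM with sh50, against 133, 136 and 147 CPM under sh52. It was lower than control under sh50 (log2 change -1.02, SE 0.06, edgeR adjusted p = 4.69e-11) and higher than control under sh52 (log2 change 0.29, edgeR, adjusted p = 0.00197). COL9A2, a collagen chain, and GMNC, a regulator of multiciliated cells, fell by log2 changes of -1.45 and -1.48 and were lower than under sh52 by -1.53 and -1.10. FAT2, an atypical cadherin, MMP7, a matrix protease, and VCAM1, an adhesion receptor, had log2 changes of -2.08, -1.85 and -1.67, and the direct comparison with sh52 passed for none of these 3.

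Counted in CPM rather than in fold, the largest rises were those of the mitochondrial ribosomal RNAs MT-RNR2 and MT-RNR1, by 0.68 and 0.74 on the log2 scale, and of IGFN1, a muscle-type immunoglobulin-domain protein, which stood at 1772, 2003 and 2378 CPM in the 3 control libraries and 2902, 3117 and 2713 CPM with sh50 (log2 change 0.51, SE 0.07, edgeR adjusted p = 4.51e-06). ALDH1A1, an aldehyde dehydrogenase that makes retinoic acid, stood at 2747, 2615 and 2653 CPM in the 3 control libraries and 1991, 1936 and 1896 CPM with sh50 (log2 change -0.46, SE 0.04, edgeR adjusted p = 5.77e-09) and was among the 6 largest falls.

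Some genes rose under sh50 and lay at or below the control level under sh52. ZNF503, a zinc-finger repressor, stood at 58.8, 52.6 and 56 CPM in the 3 control libraries and 76.1, 80.4 and 71.5 CPM with sh50, against 33.9, 51.6 and 44.9 CPM under sh52. The sh50 values were the highest 3 of the 9, and the log2 difference between the hairpins was 0.81 (SE 0.10, edgeR adjusted p = 4.3e-06). PAXIP1-DT, a long non-coding RNA, stood at 8.88, 14 and 11 CPM in the 3 control libraries and 16.5, 19.4 and 17.5 CPM with sh50, against 7.99, 8.96 and 9.91 CPM under sh52, a log2 difference of 1.0 (SE 0.15, edgeR adjusted p = 6.08e-05). ZMAT1, a zinc-finger protein, was higher than control by 0.78 and higher than sh52 by 0.90 on the log2 scale.

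**Figure D2:**
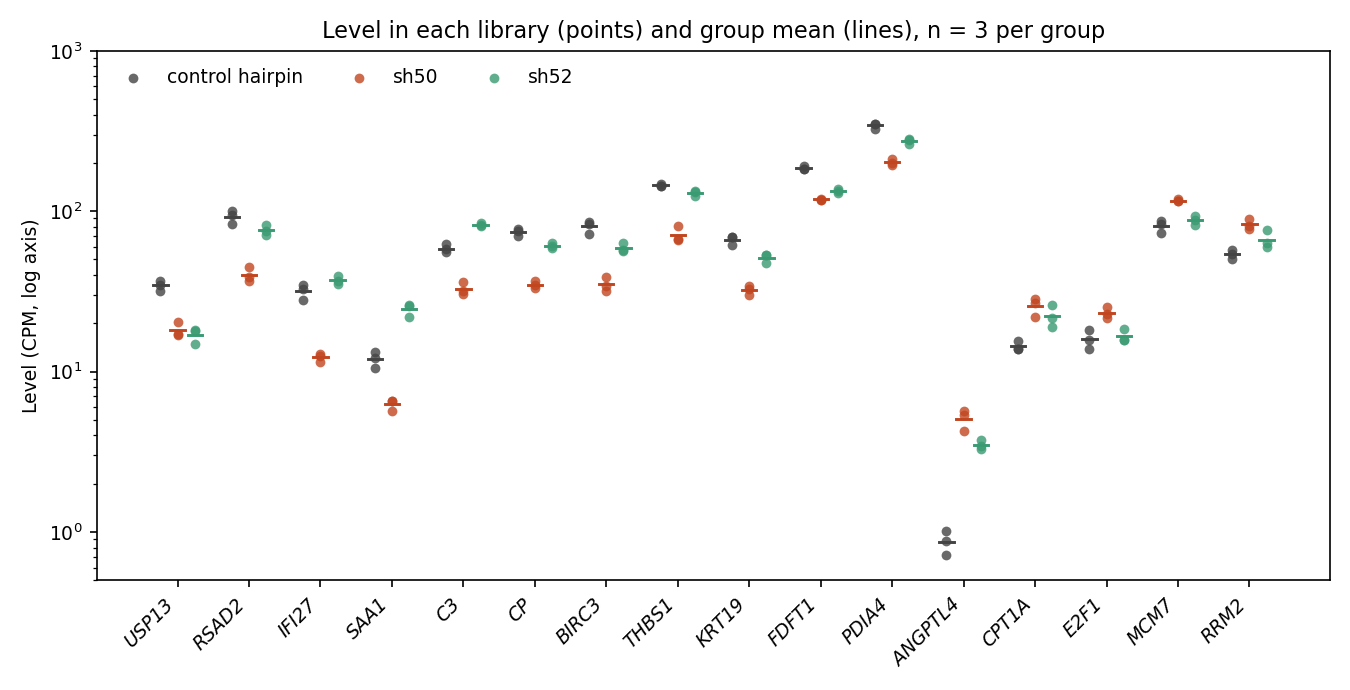
Levels of 16 genes in each library (CPM, log axis, 1 point per library, lines at group means), with control, sh50 and sh52 side by side. RSAD2, IFI27, SAA1, C3 and CP are low under sh50 and not or less so under sh52, whereas USP13 and FDFT1 are low under both.

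The interferon response starts with sensors of foreign nucleic acid and with interferon receptors, which act through JAK kinases and STAT factors to induce antiviral effector genes. Cells with an active response hold these effectors at a measurable level even without infection. Under sh50 the effectors were the list with the highest share of lower genes among those described here.

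Among nucleic acid sensors and their adaptors, 7 of 13 measured genes fell and none rose, with a median log2 change of -0.24. The count was 2 without sh50 replicate 2, 4 without sh50 replicate 1 and 4 without control replicate 2. IFIH1, a sensor of long double-stranded RNA, stood at 55.6, 61.8 and 54.4 CPM in the 3 control libraries and 41, 38.9 and 47.2 CPM with sh50. It fell by 0.43 in log2 units (SE 0.08, edgeR adjusted p = 0.00028), and its log2 difference from sh52 was -0.51 (SE 0.08, edgeR adjusted p = 0.000121). TLR3, an endosomal receptor for double-stranded RNA, stood at 20.03, 15 and 13.9 CPM in the 3 control libraries and 7.69, 10.1 and 10.6 CPM with sh50 and fell by 0.77 in log2 units (SE 0.15, edgeR adjusted p = 0.000424); the first control library was the highest of the 6. STING1, the adaptor of the cytosolic DNA sensor and a described USP13 substrate, stood at 82.8, 83 and 86.2 CPM in the 3 control libraries and 70.7, 68.3 and 74.4 CPM with sh50 (log2 change -0.24, SE 0.06, edgeR adjusted p = 0.00843). This call was lost without sh50 replicate 2 (edgeR, adjusted p = 0.0644).

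Of 14 receptors and signal transducers, 5 fell and none rose, with a median log2 change of -0.18. JAK1, the kinase that interferon receptors share, stood at 254, 247 and 230.4 CPM in the 3 control libraries and 178, 182 and 192 CPM with sh50. It fell by 0.40 in log2 units (SE 0.06, edgeR adjusted p = 7.34e-06), and was lower than under sh52 by a log2 difference of -0.36 (SE 0.06, edgeR adjusted p = 0.000113). IRF1, a transcription factor induced by interferon gamma, stood at 40.6, 43.2 and 36.6 CPM in the 3 control libraries and 33.8, 29.2 and 29 CPM with sh50 (log2 change -0.40, SE 0.09, edgeR adjusted p = 0.00189). IFNAR1, a chain of the type I interferon receptor, fell under sh50 (log2 change -0.43, SE 0.07, edgeR adjusted p = 0.000103) and did not differ detectably from sh52 (log2 difference 0.08, SE 0.07, edgeR adjusted p = 0.54). STAT2 and IRF9, members of the complex that binds interferon elements, had log2 changes of -0.07 and -0.25 and did not pass (edgeR, adjusted p = 0.437 and 0.0515). IRF9 passed as lower without sh50 replicate 1 (edgeR, adjusted p = 0.0313) and without sh52 replicate 1 (edgeR, adjusted p = 0.0336). It also passed with the sh50 and control libraries alone (edgeR, adjusted p = 0.0429) and with limma-voom (limma-voom, adjusted p = 0.0397).

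Of 47 interferon-induced antiviral effectors, 39 fell and 1 rose, and their median log2 change was -0.47 against 0.003 for all genes. The count of lower genes stayed between 37 and 39 when any single library was left out. RSAD2, which makes a chain-terminating nucleotide that stops viral polymerases, stood at 94.1, 100.3 and 83.2 CPM in the 3 control libraries and 38.6, 36.7 and 44.9 CPM with sh50. The highest sh50 value was well below the lowest control value, and the gene fell by 1.21 in log2 units (SE 0.08, edgeR adjusted p = 1.62e-10). IFI6, a mitochondrial and endoplasmic reticulum protein, stood at 163, 160.1 and 171 CPM in the 3 control libraries and 94, 83.6 and 69.9 CPM with sh50 (log2 change -1.0, SE 0.08, edgeR adjusted p = 7.16e-10). IFI27, a short mitochondrial protein, stood at 28, 32.5 and 34.8 CPM in the 3 control libraries and 12.4, 11.5 and 12.8 CPM with sh50 (log2 change -1.37, SE 0.11, edgeR adjusted p = 8.82e-10). IFITM3, a membrane protein that blocks virus entry, stood at 643, 675 and 699.8 CPM in the 3 control libraries and 459, 468 and 434 CPM with sh50 (log2 change -0.57, SE 0.05, edgeR adjusted p = 3.86e-09). These 4 genes were the ones with the smallest p in the list. EPSTI1 had the largest change of the list, from 9.04, 10.02 and 7.25 CPM to 3.4, 2.59 and 2.4 CPM (log2 change -1.68, SE 0.21, edgeR adjusted p = 1.47e-06). MX1, a dynamin-like GTPase that traps viral particles, stood at 36.5, 35.5 and 34 CPM in the 3 control libraries and 20.3, 22.4 and 20.7 CPM with sh50 (log2 change -0.74, SE 0.09, edgeR adjusted p = 9.39e-07). ISG15, a ubiquitin-like modifier, fell by less (log2 change -0.41, SE 0.06, edgeR adjusted p = 3.29e-05). USP18, which removes that modifier, stood at 17.3, 19.2 and 18.8 CPM in the 3 control libraries and 10.3, 12 and 11.7 CPM with sh50 (log2 change -0.70, SE 0.12, edgeR adjusted p = 0.000128). LGALS3BP, a secreted lectin-binding glycoprotein, was the gene that rose (log2 change 0.27, SE 0.05, edgeR adjusted p = 0.000128). The 7 that did not pass, among them ISG20, MX2, IFI35, XAF1, BST2 and HERC6, had log2 changes between -0.41 and 0.05.

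The direct comparison separated the hairpins in the same list: 35 of 47 effectors were lower under sh50 than under sh52, none was higher, and the median log2 difference was -0.39 against 0.001 for all genes. Leaving out single libraries gave 28 to 35. Under sh52 the list's median change from control was -0.06, with 5 lower and 3 higher genes, against 12% called of all genes in that comparison. IFI6 measured 157, 173 and 171 CPM under sh52 and IFI27 measured 36.6, 39.3 and 35.2 CPM, in both cases above every sh50 library. The log2 difference of sh50 from sh52 was -1.02 (SE 0.08, edgeR adjusted p = 1.21e-09) for IFI6 and -1.59 (SE 0.10, edgeR adjusted p = 1.63e-10) for IFI27.

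Promoter stretches of 4 genes are shown because these genes fell with the smallest p in this list and hold the interferon element GAAANNGAA within 250 bases before an annotated start. Each line gives 60 bases of GRCh38.p14 from RefSeq on the strand of the gene, with matches to the element on either strand in capitals.
RSAD2, chr2:6865781-6865840, plus strand: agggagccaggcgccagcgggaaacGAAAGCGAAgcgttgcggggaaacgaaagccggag
IFI6, chr1:27672251-27672310, minus strand: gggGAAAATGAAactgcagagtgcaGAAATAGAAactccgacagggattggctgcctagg
IFI27, chr14:94110616-94110675, plus strand: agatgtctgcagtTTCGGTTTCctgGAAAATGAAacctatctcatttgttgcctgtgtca
IFITM3, chr11:320861-320920, minus strand: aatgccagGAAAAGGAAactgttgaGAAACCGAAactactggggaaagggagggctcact
The RSAD2 stretch lies before 1 of its annotated starts. A promoter was found for 10993 of the genes tested, and 955 of those promoters (8.7%) held the element. It was in 27 of 36 effector promoters (75.0%), in 11.2% of the promoters of genes that fell and in 7.6% of those that rose. It was in 13 of 67 genes that fell past 2-fold (19.4%), in 4 of 32 that rose past 2-fold (12.5%) and in 13 of 66 cytosolic ribosomal protein promoters (19.7%), a list that rose. Among genes that fell and were also lower than under sh52 it was in 56 of 393 (14.2%). A match is a description of the letters, and binding was not measured.

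Antigen presentation through MHC class I uses the immunoproteasome to cut proteins, aminopeptidases to trim the peptides, chaperones to load them, and a heavy chain with B2M to display them. Of 19 measured genes, 11 fell and 1 rose, with a median log2 change of -0.19. The count of lower genes was 7 without sh50 replicate 2 and 6 without sh50 replicate 3. PSMB9, an immunoproteasome subunit, stood at 32.1, 36.3 and 36.4 CPM in the 3 control libraries and 22.4, 21.9 and 21.6 CPM with sh50. It fell by 0.67 in log2 units (SE 0.09, edgeR adjusted p = 6.41e-06), and its log2 difference from sh52 was -0.76 (SE 0.09, edgeR adjusted p = 3.59e-06). The trimming enzymes ERAP1 and ERAP2 fell, with log2 changes of -0.62 and -0.43. CALR, a loading chaperone, stood at 1204, 1205 and 1221 CPM in the 3 control libraries and 889, 880.2 and 872 CPM with sh50 (log2 change -0.46, SE 0.04, edgeR adjusted p = 8.94e-09). PDIA3, its partner, stood at 667, 661 and 634 CPM in the 3 control libraries and 503, 487 and 510.3 CPM with sh50 (log2 change -0.39, SE 0.05, edgeR adjusted p = 8.38e-07). B2M stood at 2425, 2481 and 2415 CPM in the 3 control libraries and 1980.1, 1854 and 1893 CPM with sh50 and fell by 0.35 in log2 units (SE 0.04, edgeR adjusted p = 4.42e-07). Against sh52, 9 of the 19 genes were lower under sh50 and none was higher.

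**Figure D3:**
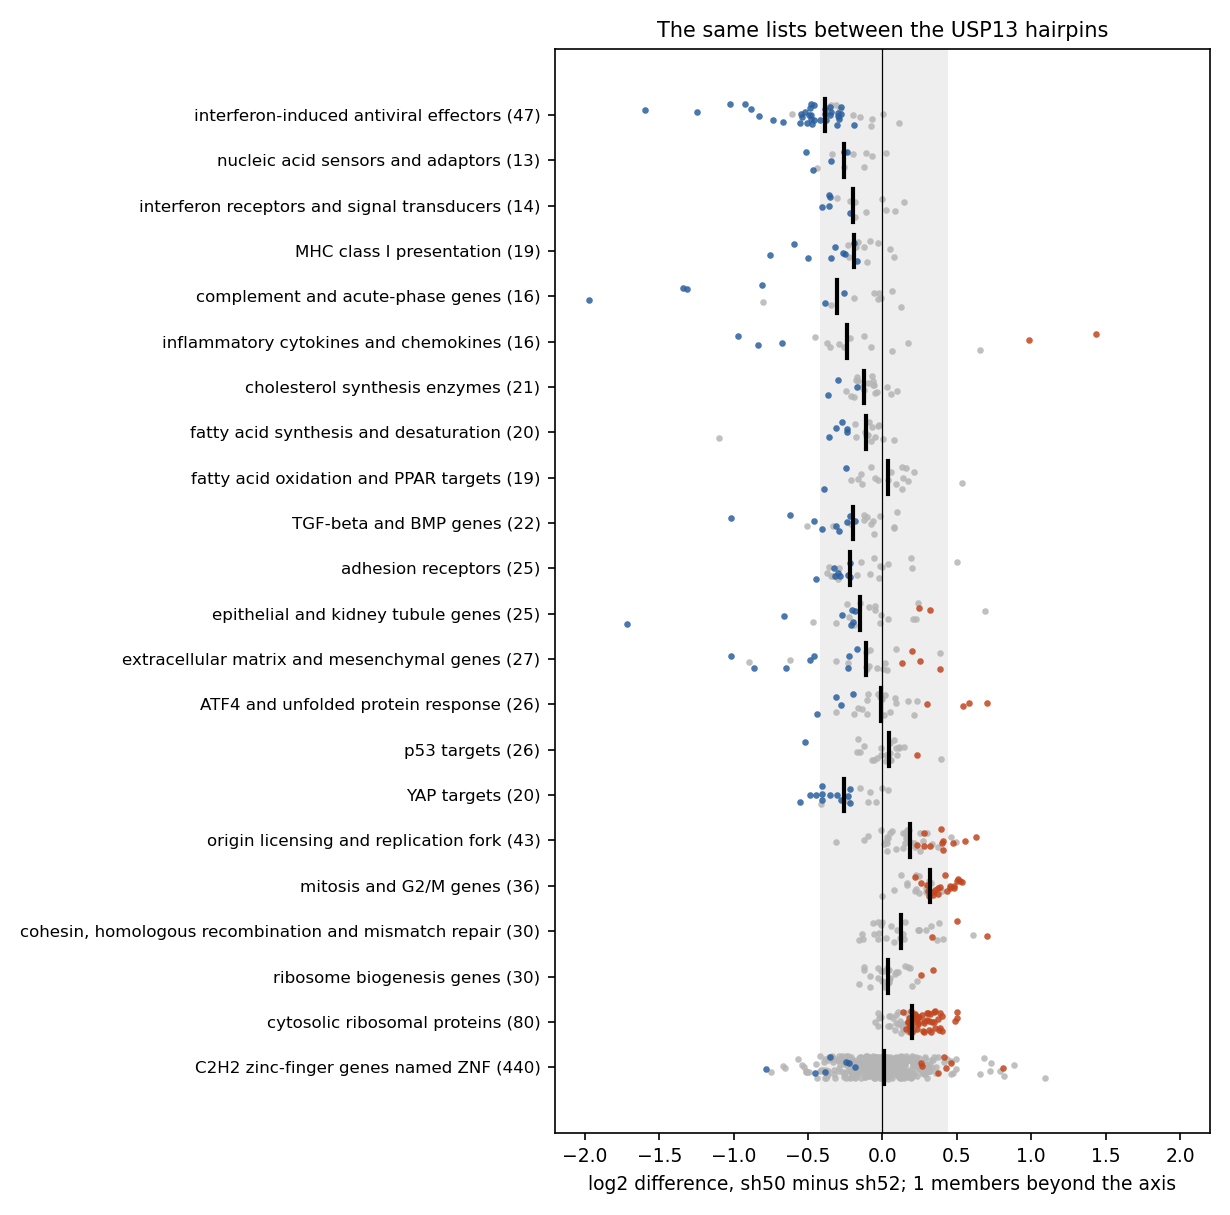
Log2 difference of sh50 from sh52 for the members of 22 gene lists (points, coloured by the call in that direct comparison). Black bars are medians, and the grey band is the 5th to 95th percentile of all genes. The interferon effectors lie mostly below 0 (median -0.39), and the median of the mitosis and G2/M genes lies above it (0.32).

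Cytokines and chemokines carry signals between cells, and 12 of the 28 listed were too low to test. Of the 16 tested, 6 fell and 1 rose, with a median log2 change of -0.37. CCL5, a chemokine for T cells, stood at 62.4, 63.7 and 67.3 CPM in the 3 control libraries and 34.9, 32.3 and 40.9 CPM with sh50. It fell by 0.83 in log2 units (SE 0.08, edgeR adjusted p = 6.16e-08) and measured 59.8, 66.5 and 67.3 CPM under sh52. TNFSF10, the death ligand TRAIL, stood at 168, 148 and 149 CPM in the 3 control libraries and 101, 87.8 and 90.3 CPM with sh50 (log2 change -0.74, SE 0.07, edgeR adjusted p = 1.03e-08). CSF1, a growth factor of macrophages, stood at 89.4, 90.3 and 89.9 CPM in the 3 control libraries and 55.9, 59.7 and 57.5 CPM with sh50 (log2 change -0.64, SE 0.07, edgeR adjusted p = 4.62e-07), and was not detectably different from sh52 (log2 difference -0.12, SE 0.07, edgeR adjusted p = 0.321). Of the NF-kB subunits, kinases and inhibitors, 4 of 18 fell and 1 rose; RELA, a subunit, and NFKBIA, an inhibitor that NF-kB induces, fell with log2 changes of -0.34 and -0.42.

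Acute-phase and complement genes included some that moved in opposite directions under the 2 hairpins. SAA1, an acute-phase apolipoprotein, stood at 12.2, 10.5 and 13.2 CPM in the 3 control libraries and 6.53, 6.53 and 5.71 CPM with sh50, against 22, 25.8 and 25.7 CPM under sh52. The 3 sh50 values were below and the 3 sh52 values above all control values, and the log2 difference between the hairpins was -1.97 (SE 0.13, edgeR adjusted p = 1.81e-10). C3, the central complement component, stood at 57.8, 55.3 and 62.3 CPM in the 3 control libraries and 35.9, 30.6 and 31.7 CPM with sh50, and 84.8, 81.1 and 81.6 CPM in the sh52 libraries. Under sh50 it fell (log2 change -0.84, SE 0.08, edgeR adjusted p = 1.74e-08) and rose under sh52 (log2 change 0.50, edgeR, adjusted p = 4.17e-05). CP, the copper-carrying plasma protein, stood at 76.9, 75.2 and 69.6 CPM in the 3 control libraries and 34.4, 33.1 and 36.8 CPM with sh50, with 63.6, 61 and 58.5 CPM under sh52. It fell by 1.09 in log2 units (SE 0.07, edgeR adjusted p = 1.6e-10), the smallest p of the list, and the log2 difference from sh52 was -0.81 (SE 0.08, edgeR adjusted p = 6.57e-08). In the whole list 8 of 16 genes fell and none rose, a count of 4 without control replicate 2 or 3 and of 5 without sh50 replicate 2 or 3. Against sh52, 7 of 16 were lower and none higher. The list does not hold the complement genes C4A, C4B and C4B_2, which rose under sh50 with log2 changes of 1.18, 1.52 and 1.44, at 2.18 CPM or less in every control library. They were named after their values were seen. They are near-identical copies whose reads are divided by estimation. Among leukocyte markers the sum was 30.3 to 33.2 CPM in the control and 20.1 to 24.6 CPM under sh50, carried by CD68, which stood at 30.7, 27.8 and 31.2 CPM in the 3 control libraries and 18.2, 18.3 and 22.6 CPM with sh50. The defining leukocyte marker PTPRC was at or near 0, as were the others, and the part of CD68-bearing cells in these results was not tested beyond that.

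Of 26 apoptosis regulators, 8 fell and none rose. BIRC3, an inhibitor of apoptosis and a product of NF-kB signalling, stood at 85.8, 83.4 and 72.5 CPM in the 3 control libraries and 34.1, 39.1 and 31.6 CPM with sh50. The sh50 values were all far below the control values (log2 change -1.21, SE 0.09, edgeR adjusted p = 2.06e-10), and the log2 difference from sh52 was -0.76 (SE 0.09, edgeR adjusted p = 1.72e-06). FAS, a death receptor, stood at 34.6, 32.5 and 31.2 CPM in the 3 control libraries and 22.7, 21.8 and 24.9 CPM with sh50 (log2 change -0.50, SE 0.09, edgeR adjusted p = 0.000252).

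Cholesterol is built from acetyl-CoA by a chain of enzymes whose genes are switched on together by the factor SREBF2, and fatty acids by enzymes under SREBF1. INSIG1 holds both factors back in the endoplasmic reticulum and is itself one of their targets. Of 21 cholesterol synthesis enzymes, 17 fell and none rose, with a median log2 change of -0.40, and leaving out single libraries gave 15 to 17. HMGCS1, the first committed enzyme, stood at 245, 261 and 214 CPM in the 3 control libraries and 142, 144 and 168 CPM with sh50 (log2 change -0.66, SE 0.07, edgeR adjusted p = 3.61e-07). FDFT1, which makes squalene, stood at 183, 191 and 184 CPM in the 3 control libraries and 118, 119 and 117 CPM with sh50 (log2 change -0.66, SE 0.06, edgeR adjusted p = 2.78e-09). In both of these genes every sh50 library was below every control library. The sterol element TCACNCCAC, searched on both strands, was in 0 of the 16 promoters found for these enzymes and in 159 of 10993 of all genes (1.4%), which says only that these letters were not in those windows. Under sh52, 12 of the 21 fell, with a median of -0.26, and 3 were lower under sh50 than under sh52.

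Of 20 fatty acid synthesis and desaturation genes, 13 fell and 1 rose (median log2 change -0.35). SCD, the desaturase that makes oleate, stood at 1437, 1422 and 1335 CPM in the 3 control libraries and 987, 963 and 1003 CPM with sh50 (log2 change -0.51, SE 0.04, edgeR adjusted p = 3.12e-09). FADS2, a desaturase of polyunsaturated fatty acids, stood at 513, 514 and 501 CPM in the 3 control libraries and 325, 337 and 316 CPM with sh50 (log2 change -0.64, SE 0.06, edgeR adjusted p = 5.77e-09). ACLY, which supplies acetyl-CoA and is a described USP13 substrate, stood at 545, 558 and 534 CPM in the 3 control libraries and 422, 429 and 436 CPM with sh50 (log2 change -0.35, SE 0.05, edgeR adjusted p = 4.41e-06). ACSL1, which activates fatty acids, was the gene that rose (log2 change 0.32, SE 0.07, edgeR adjusted p = 0.000677). Upstream, INSIG1 stood at 212, 226 and 191 CPM in the 3 control libraries and 128, 140.2 and 147 CPM with sh50 and fell by 0.60 in log2 units (SE 0.07, edgeR adjusted p = 4.01e-07). It was lower than under sh52 by a log2 difference of -0.47 (SE 0.07, edgeR adjusted p = 3.81e-05).

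Genes of fatty acid oxidation and PPAR signalling moved in both directions: 9 of 19 rose and 3 fell, with a median of 0.17. The 9 were 6 without control replicate 1 and under the replicate block, and the 3 were 1 without sh50 replicate 1, control replicate 1 or control replicate 2. CPT1A, which admits fatty acids to mitochondria, stood at 13.9, 15.4 and 13.9 CPM in the 3 control libraries and 28.4, 26.9 and 21.8 CPM with sh50 (log2 change 0.83, SE 0.12, edgeR adjusted p = 2.24e-05). ACADVL, the first enzyme of long-chain oxidation, stood at 272, 272 and 306 CPM in the 3 control libraries and 356, 371 and 335 CPM with sh50 (log2 change 0.32, SE 0.06, edgeR adjusted p = 0.00015). PLIN2, the coat protein of lipid droplets, stood at 190.2, 174 and 182 CPM in the 3 control libraries and 234, 209 and 229 CPM with sh50 (log2 change 0.30, SE 0.06, edgeR adjusted p = 0.0003). PPARGC1A, a coactivator of mitochondrial genes, rose by 0.41 and PPARA, a receptor for fatty acids, fell (log2 change -0.42). In this list 2 genes were lower under sh50 than under sh52 and none was higher.

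**Figure D4:**
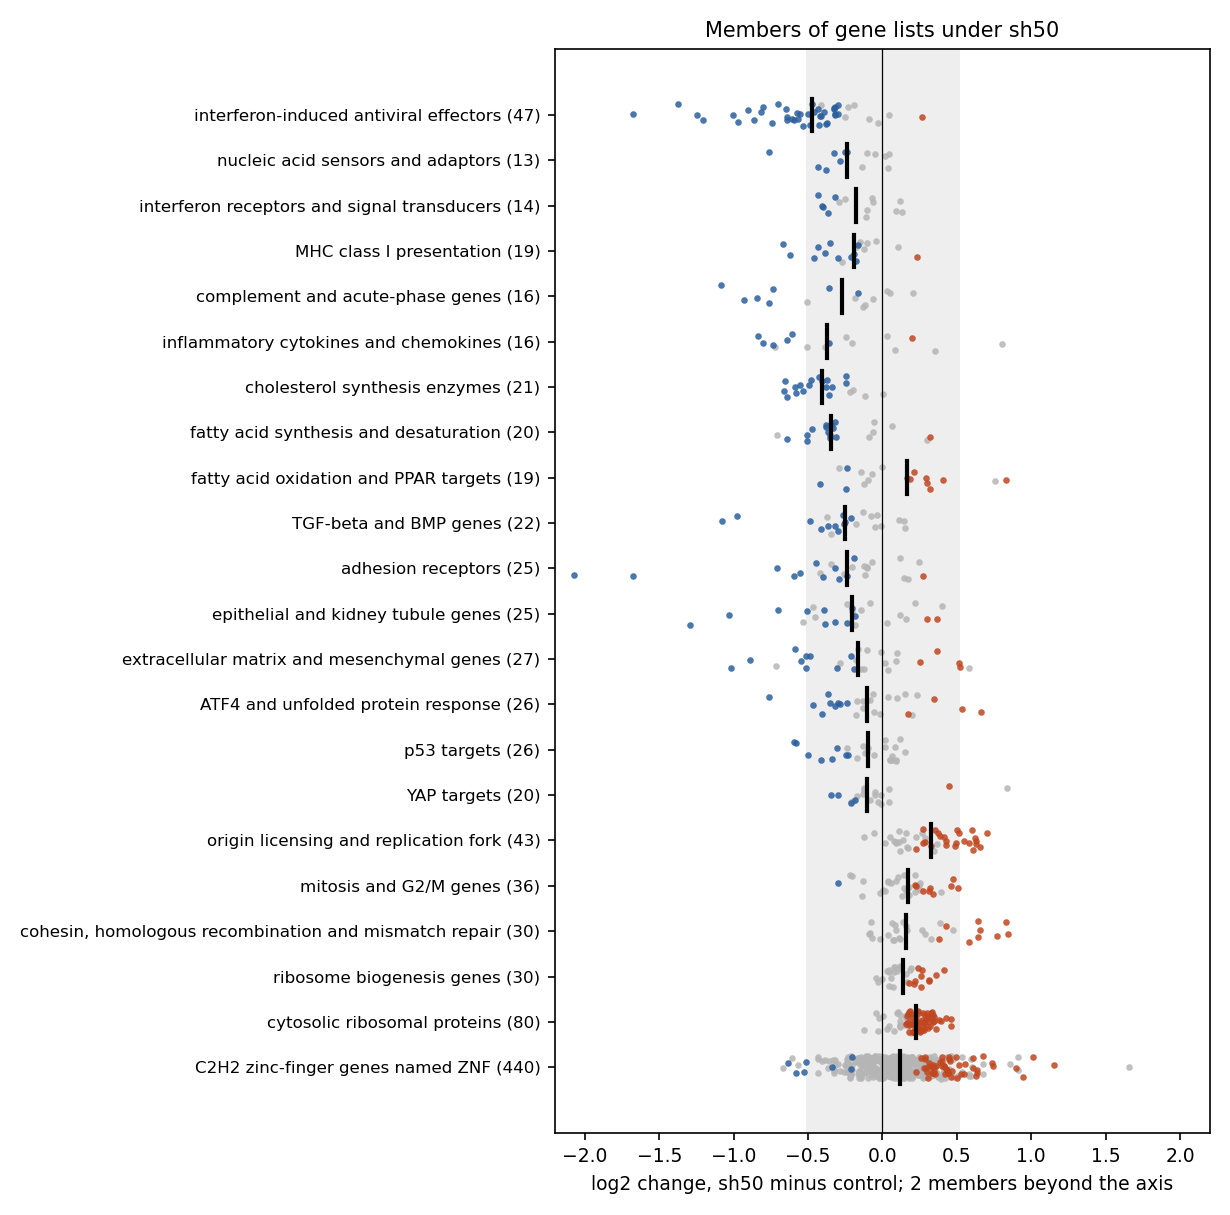
Log2 change of sh50 from control for the members of each gene list (points, coloured by call; black bar, median), beside the 5th to 95th percentile of all genes (grey band). The medians of the effector, cholesterol synthesis and fatty acid synthesis lists lie below 0. Those of the fatty acid oxidation, replication and cytosolic ribosomal protein lists lie above it.

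DNA replication begins when licensing factors load the MCM helicase onto origins, after which polymerases and fork proteins copy the strands, and E2F factors switch these genes on at the start of S phase. Of 43 licensing and fork genes, 24 rose and none fell, with a median log2 change of 0.33, and leaving out single libraries gave 16 to 24. CDC6, a licensing factor, stood at 13.6, 10.9 and 10.1 CPM in the 3 control libraries and 14.8, 18.4 and 22.5 CPM with sh50 (log2 change 0.70, SE 0.15, edgeR adjusted p = 0.00107). CDT1, its partner, stood at 10.1, 12.6 and 13.5 CPM in the 3 control libraries and 19.1, 17.9 and 17.9 CPM with sh50 (log2 change 0.60, SE 0.12, edgeR adjusted p = 0.000772). MCM7, a helicase subunit, stood at 73.4, 83.3 and 87.1 CPM in the 3 control libraries and 116, 118 and 115 CPM with sh50 (log2 change 0.52, SE 0.07, edgeR adjusted p = 2.97e-06). POLE, the leading-strand polymerase, stood at 43.6, 48.9 and 47 CPM in the 3 control libraries and 57.6, 71.2 and 67.5 CPM with sh50 (log2 change 0.50, SE 0.08, edgeR adjusted p = 6.67e-05). LIG1, the ligase that joins the fragments of the other strand, stood at 27.7, 27.9 and 25 CPM in the 3 control libraries and 35.9, 33.1 and 39.4 CPM with sh50 (log2 change 0.43, SE 0.09, edgeR adjusted p = 0.00112). PCNA, the sliding clamp, stood at 62.6, 58.6 and 58.3 CPM in the 3 control libraries and 76.5, 77.5 and 71.6 CPM with sh50 (log2 change 0.33, SE 0.07, edgeR adjusted p = 0.00141). Among genes that make nucleotides, RRM2, a subunit of ribonucleotide reductase, stood at 50.03, 57.3 and 54.4 CPM in the 3 control libraries and 80.9, 77.6 and 89.4 CPM with sh50 and rose by 0.62 in log2 units (SE 0.08, edgeR adjusted p = 5.38e-06).

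Against sh52, 11 of the 43 were higher under sh50 and none was lower, a count of 5 without sh50 replicate 2 and 6 without sh50 replicate 3; the median log2 difference was 0.18. The list's median change under sh52 was 0.10, with 2 genes higher. MCM7 was higher than under sh52 by a log2 difference of 0.41 (SE 0.07, edgeR adjusted p = 0.000205).

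Promoter stretches of the 4 genes with the smallest p that hold an E2F element (TTTCCCGC or TTTGGCGC, either strand) within 250 bases before the start are shown, again from RefSeq on GRCh38.p14 with the match in capitals.
MCM7, chr7:100101550-100101609, minus strand: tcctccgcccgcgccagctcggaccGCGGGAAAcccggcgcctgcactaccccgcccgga
POLE, chr12:132687343-132687402, minus strand: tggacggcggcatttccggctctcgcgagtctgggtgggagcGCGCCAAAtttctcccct
CDT1, chr16:88803729-88803788, plus strand: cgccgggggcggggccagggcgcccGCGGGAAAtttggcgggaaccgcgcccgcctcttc
LIG1, chr19:48170424-48170483, minus strand: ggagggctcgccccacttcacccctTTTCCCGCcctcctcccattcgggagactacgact
The element was in 503 of 10993 promoters (4.6%), in 17 of 37 licensing and fork promoters (45.9%), in 6.0% of the promoters of genes that rose and in 2.5% of those of genes that fell. It was in 24 of 287 promoters (8.4%) of genes that rose and were also higher than under sh52.

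Control of the G1 phase did not move as a block. Of 25 genes, 4 rose and 5 fell. E2F1 stood at 13.9, 15.8 and 18.1 CPM in the 3 control libraries and 22.7, 25.4 and 21.6 CPM with sh50 (log2 change 0.55, SE 0.12, edgeR adjusted p = 0.00118). E2F2, a second activator of the family, stood at 3.27, 3.63 and 3.11 CPM in the 3 control libraries and 7.33, 6.87 and 7.09 CPM with sh50 (log2 change 1.08, SE 0.20, edgeR adjusted p = 0.000234). CCND1, a cyclin that starts the cycle, stood at 286, 272 and 301 CPM in the 3 control libraries and 345, 345 and 351 CPM with sh50 (log2 change 0.28, SE 0.05, edgeR adjusted p = 0.000244). CCND3, of the same family, stood at 64, 60.3 and 61.8 CPM in the 3 control libraries and 53.5, 45.9 and 41.8 CPM with sh50 (log2 change -0.40, SE 0.09, edgeR adjusted p = 0.00136). CDKN1A, an inhibitor of cyclin-dependent kinases and a p53 target, stood at 441, 429 and 458 CPM in the 3 control libraries and 329, 347 and 323 CPM with sh50 (log2 change -0.41, SE 0.06, edgeR adjusted p = 8.38e-06). CDKN2C, an inhibitor of CDK4 and CDK6, and SKP2, the ubiquitin ligase subunit that removes cell-cycle inhibitors, fell with log2 changes of -0.40 and -0.90. The p53 target list held 8 of 26 lower genes and none higher, a count of 5 without sh50 replicate 2. PLK2, a kinase of that list, stood at 242, 264 and 255 CPM in the 3 control libraries and 171, 163 and 171 CPM with sh50 (log2 change -0.59, SE 0.05, edgeR adjusted p = 1.03e-08), and was lower than under sh52 by a log2 difference of -0.52 (SE 0.05, edgeR adjusted p = 3.29e-07).

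Mitosis and G2/M genes were counted both against the control and between the hairpins. From control to sh50, 9 of 36 rose and 1 fell (median 0.17), a count of higher genes of 4 without sh50 replicate 2, control replicate 1 or control replicate 3 and of 5 without sh50 replicate 3. From sh52 to sh50, 21 of 36 were higher and none lower (median log2 difference 0.32), and under sh52 6 were lower than control and none higher. The 21 were 8 without sh50 replicate 2, 13 without sh50 replicate 3, 10 without sh52 replicate 2, 13 without sh52 replicate 3 and 16 without sh52 replicate 1, the library that lay apart. CCNA2, a cyclin of S phase and G2, stood at 20.8, 25.8 and 23.2 CPM in the 3 control libraries and 30.05, 32.5 and 33.5 CPM with sh50 (log2 change 0.46, SE 0.10, edgeR adjusted p = 0.00126). UBE2C, which serves the ligase that ends mitosis, stood at 54.2, 62.6 and 55.2 CPM in the 3 control libraries and 69.8, 75.5 and 69.98 CPM with sh50 (log2 change 0.32, SE 0.07, edgeR adjusted p = 0.00253), with 51.3, 50.9 and 57.1 CPM under sh52. TOP2A, the topoisomerase of dividing cells, measured 133, 147 and 120.2 CPM in the control, 135, 148 and 159 CPM with sh50 and 112, 102 and 105 CPM with sh52. It was not called against control, except without control replicate 2 (edgeR, adjusted p = 0.0489), and was higher under sh50 than under sh52 by a log2 difference of 0.48 (SE 0.07, edgeR adjusted p = 5.59e-05). Of 9 replication-dependent histones none passed against control and 3 were lower under sh50 than under sh52, measured only as the part of their RNA that the libraries captured.

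Of 30 genes of cohesin, homologous recombination and mismatch repair, 9 rose and none fell. FANCA, of the Fanconi anaemia complex, stood at 21.9, 31.5 and 28.6 CPM in the 3 control libraries and 37.7, 41.8 and 43.5 CPM with sh50 (log2 change 0.58, SE 0.10, edgeR adjusted p = 0.0002). EXO1, a nuclease of recombination and mismatch repair, stood at 7.79, 5.76 and 4.78 CPM in the 3 control libraries and 11.3, 9.8 and 11.8 CPM with sh50 (log2 change 0.84, SE 0.19, edgeR adjusted p = 0.00201). XRCC2, a protein of homologous recombination, stood at 5.38, 5.01 and 5.34 CPM in the 3 control libraries and 6.89, 9.73 and 11 CPM with sh50 (log2 change 0.83, SE 0.18, edgeR adjusted p = 0.0014). The spread was wide at these low levels: the lowest sh50 value of XRCC2 was closer to the control values than to the highest sh50 value.

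Cytosolic ribosomal proteins build the ribosome together with its RNA, and their genes are among the most highly expressed in growing cells. Of 80 tested, 58 rose and none fell, with a median log2 change of 0.23, and leaving out single libraries gave 44 to 67. RPL23 stood at 552, 548 and 516 CPM in the 3 control libraries and 747, 707 and 767 CPM with sh50 (log2 change 0.46, SE 0.05, edgeR adjusted p = 1.38e-07). RPL4 stood at 1282, 1268 and 1235 CPM in the 3 control libraries and 1614, 1562 and 1618 CPM with sh50 (log2 change 0.34, SE 0.04, edgeR adjusted p = 7.1e-07). RPS6, the ribosomal protein that growth signals phosphorylate, stood at 949, 984 and 1007 CPM in the 3 control libraries and 1253, 1229 and 1199.7 CPM with sh50 (log2 change 0.32, SE 0.04, edgeR adjusted p = 4.73e-06). Against sh52, 51 of 80 were higher and none lower, with 36 to 58 when single libraries were left out; under sh52 itself 14 were higher and 11 lower than control. These genes have many near-identical pseudogene copies, so their counts are estimates, and the share of mitochondrial ribosomal RNA moved the same way in these libraries; its part was not tested, and 3.54% to 3.80% was measured under sh52. EEF1A1, the factor that brings tRNA to the ribosome, rose by 0.15 on the log2 scale from 5374, 5385 and 5321 CPM to 5979.9, 5947 and 5900.2 CPM, 1 of the 6 largest rises in CPM.

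Ribosome biogenesis genes gave 11 higher of 30 and none lower, with 4 without sh50 replicate 2 and 7 without sh50 replicate 1 or control replicate 2. TCOF1, which promotes transcription of ribosomal DNA, stood at 63.4, 73.2 and 82.6 CPM in the 3 control libraries and 99.7, 96.4 and 95.3 CPM with sh50 (log2 change 0.41, SE 0.08, edgeR adjusted p = 0.00045). MYBBP1A, a nucleolar protein, rose by 0.36. Among 77 mitochondrial ribosomal protein genes 11 rose and 1 fell, close to the 10.2% of all genes that rose, and 7 rose without sh50 replicate 1 or control replicate 1 and 5 without control replicate 2. Host genes of small nucleolar RNAs gave 7 higher and 1 lower of 21, with 4 higher without control replicate 1; SNHG1 rose by 0.42 on the log2 scale.

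786-O cells rely on EPAS1, the hypoxia-inducible factor that VHL loss stabilises. EPAS1 mRNA stood at 80.03, 79.7 and 79.1 CPM in the 3 control libraries and 60.8, 53.4 and 60.1 CPM with sh50. It fell by 0.46 in log2 units (SE 0.07, edgeR adjusted p = 5.8e-05). HIF1A measured 17.5, 18.9 and 17.3 CPM in the control and 17.3, 17.8 and 15.7 CPM under sh50, overlapping, and did not pass (log2 change -0.08, SE 0.11, edgeR adjusted p = 0.64). Of 13 HIF subunits, oxygen sensors and their partners, 4 rose and 2 fell, and the 4 were 1 without sh50 replicate 1 and 2 without sh50 replicate 3 or any 1 control library. Targets of the pathway went both ways. Of 24 glycolysis and lactate genes 7 rose and 5 fell, and of 24 other hypoxia targets 5 rose and 6 fell. SLC2A1, the main glucose transporter, stood at 386, 410.5 and 409 CPM in the 3 control libraries and 326, 295 and 306 CPM with sh50, against 429, 457 and 463 CPM in the sh52 libraries. Under sh50 it fell (log2 change -0.38, SE 0.05, edgeR adjusted p = 6.43e-06), and the log2 difference between the hairpins was -0.54 (SE 0.05, edgeR adjusted p = 1.05e-07). LDHA, which makes lactate, stood at 1752, 1820.5 and 1678 CPM in the 3 control libraries and 1494, 1414 and 1524 CPM with sh50 (log2 change -0.24, SE 0.04, edgeR adjusted p = 0.00026). SLC16A3, which exports it, stood at 222, 222 and 259 CPM in the 3 control libraries and 319, 324 and 275 CPM with sh50 (log2 change 0.39, SE 0.09, edgeR adjusted p = 0.00287). EGLN3, an oxygen-sensing hydroxylase induced by hypoxia, and the collagen hydroxylases P4HA1 and P4HA2 fell, with log2 changes of -0.38, -0.35 and -0.53. VEGFA, the angiogenic growth factor, stood at 194, 176 and 203 CPM in the 3 control libraries and 271, 252 and 242 CPM with sh50 (log2 change 0.42, SE 0.06, edgeR adjusted p = 1.01e-05). ADM, a vasodilator peptide, stood at 105, 99.99 and 119.9 CPM in the 3 control libraries and 144, 144 and 136 CPM with sh50 (log2 change 0.39, SE 0.06, edgeR adjusted p = 7.88e-05). Against sh52, 7 of the 24 other hypoxia targets were lower under sh50 and none higher.

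Genes of the cell's surroundings and shape changed in both directions. Of 27 matrix and mesenchymal genes, 10 fell and 4 rose. VIM, the main intermediate filament of mesenchymal and renal carcinoma cells, stood at 3915, 3876 and 3839 CPM in the 3 control libraries and 2643, 2608 and 2709.6 CPM with sh50 (log2 change -0.55, SE 0.04, edgeR adjusted p = 7.62e-11), the largest fall in CPM of any called gene. THBS1, a matrix glycoprotein that activates TGF-beta, stood at 147, 144 and 144 CPM in the 3 control libraries and 67.2, 66.3 and 80.5 CPM with sh50. No sh50 value came near the control values, and the gene fell by 1.02 in log2 units (SE 0.07, edgeR adjusted p = 9.13e-11). It measured 132, 125 and 134 CPM under sh52, a log2 difference between the hairpins of -0.87 (SE 0.07, edgeR adjusted p = 3.77e-09). TGFBI, a matrix protein induced by TGF-beta, stood at 1071, 1090.2 and 1014 CPM in the 3 control libraries and 753, 754 and 762 CPM with sh50 (log2 change -0.49, SE 0.04, edgeR adjusted p = 7.18e-09). COL4A1, a basement membrane collagen, stood at 1197, 1132 and 1101 CPM in the 3 control libraries and 789, 802 and 805 CPM with sh50 (log2 change -0.52, SE 0.04, edgeR adjusted p = 4.75e-09). The laminin chains LAMB1 and LAMA5 rose by 0.36 and 0.52. LAMB1 measured 789, 766 and 782 CPM in the control and 989, 1003 and 1015 CPM under sh50, with 788, 771 and 745 CPM under sh52.

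Of 25 adhesion receptors, 11 fell and 1 rose (median -0.24). ITGA5, the fibronectin receptor chain, stood at 195, 191 and 197 CPM in the 3 control libraries and 130.2, 127 and 129 CPM with sh50 (log2 change -0.60, SE 0.06, edgeR adjusted p = 3.02e-08). DSG2, a desmosomal cadherin, stood at 246, 246 and 214 CPM in the 3 control libraries and 146, 136 and 149.9 CPM with sh50 (log2 change -0.71, SE 0.06, edgeR adjusted p = 7.18e-09). Against sh52, 8 of 25 were lower under sh50, 5 without sh50 replicate 2. Of 15 matrix proteases and inhibitors, 9 fell and 3 rose, with 1 rising without control replicate 2; PLAU, the urokinase, stood at 45.6, 45.5 and 44.4 CPM in the 3 control libraries and 32.2, 30.8 and 33.4 CPM with sh50 (log2 change -0.49, SE 0.08, edgeR adjusted p = 6.31e-05). Of 22 TGF-beta and BMP genes, 11 fell and none rose, with 7 falling without control replicate 2. BAMBI, a decoy receptor, stood at 13.9, 10.1 and 13.7 CPM in the 3 control libraries and 6.35, 6.26 and 5.23 CPM with sh50 (log2 change -1.08, SE 0.16, edgeR adjusted p = 1.79e-05). ID3, a target of BMP signals, stood at 240.3, 238 and 247 CPM in the 3 control libraries and 186, 173 and 187 CPM with sh50 (log2 change -0.41, SE 0.06, edgeR adjusted p = 8.45e-06).

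The list of YAP targets also holds factors of the pathway itself, among them YAP1, WWTR1, TEAD1 and TEAD4. Of its 20 genes, 4 fell and 1 rose under sh50 (2 fell without sh50 replicate 1 or control replicate 1). Against sh52, 12 of 20 were lower under sh50 and none higher (7 without sh50 replicate 1 and 7 without sh52 replicate 1). Under sh52, 7 of the 20 were higher than control and none lower. WWTR1, the coactivator TAZ, stood at 382, 370.3 and 319.7 CPM in the 3 control libraries and 282, 283 and 306 CPM with sh50 (log2 change -0.30, SE 0.06, edgeR adjusted p = 0.000527).

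Among 25 epithelial and kidney tubule genes, 10 fell and 2 rose (median -0.21), the 2 being 1 without sh50 replicate 1 or 3 or control replicate 1 or 2 and under the replicate block. KRT19, a simple-epithelial keratin, stood at 61.6, 68.7 and 68.6 CPM in the 3 control libraries and 30.05, 32.8 and 34.2 CPM with sh50 (log2 change -1.03, SE 0.08, edgeR adjusted p = 1.07e-09). CDH16, the kidney-specific cadherin, stood at 202, 192 and 199 CPM in the 3 control libraries and 122, 127 and 115 CPM with sh50 (log2 change -0.70, SE 0.06, edgeR adjusted p = 2.99e-09). USH1C, a scaffold of the brush border, stood at 20.7, 18.4 and 17.3 CPM in the 3 control libraries and 7.96, 6.46 and 8.47 CPM with sh50 (log2 change -1.30, SE 0.14, edgeR adjusted p = 1.32e-07). PAX2, a renal lineage factor, rose (log2 change 0.37, SE 0.07, edgeR adjusted p = 0.0006). Summed over the 14 markers of the tumour type, the level was 6789 to 6811 CPM in the control and 5119 to 5203 CPM under sh50, most of it VIM. Of the 12 markers tested, 9 fell and 2 rose, with a median log2 change of -0.29. Leaving out single libraries gave 6 to 9 that fell.

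Growth factor receptor kinases gave 6 lower and 1 higher of 16. EGFR stood at 149.7, 135 and 135 CPM in the 3 control libraries and 102, 104 and 111 CPM with sh50, with 151, 151 and 150.3 CPM under sh52. It fell by 0.41 in log2 units (SE 0.06, edgeR adjusted p = 1.36e-05) and was lower than under sh52 by a log2 difference of -0.52 (SE 0.06, edgeR adjusted p = 1.7e-06). FGFR3 stood at 114, 110.4 and 115 CPM in the 3 control libraries and 79.9, 80.3 and 76.8 CPM with sh50 (log2 change -0.52, SE 0.08, edgeR adjusted p = 3.85e-05). EPHB4, an ephrin receptor, was the kinase that rose (log2 change 0.96, SE 0.18, edgeR adjusted p = 0.000276). Among immediate early genes, FOS and FOSB rose by 0.28 and 0.32 and FOSL2 and IER3 fell with log2 changes of -0.34 and -0.47; 6 of 25 rose, 3 without control replicate 1 or 2, and 3 fell.

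The unfolded protein response raises chaperones of the endoplasmic reticulum, and its ATF4 branch raises amino acid synthesis. Of 26 genes, 9 fell and 4 rose, and the 4 were 2 without sh50 replicate 1 or 2 or control replicate 1 or 2. PDIA4, a disulfide isomerase, stood at 352, 351 and 326 CPM in the 3 control libraries and 211, 195 and 199.9 CPM with sh50 (log2 change -0.76, SE 0.05, edgeR adjusted p = 2.06e-10). HSPA5, the main chaperone of the compartment, stood at 1198, 1178 and 1118 CPM in the 3 control libraries and 959, 919.6 and 984 CPM with sh50 (log2 change -0.29, SE 0.04, edgeR adjusted p = 2.81e-05). HSP90B1, of the same compartment, stood at 702, 727 and 641 CPM in the 3 control libraries and 544, 538 and 579 CPM with sh50 (log2 change -0.32, SE 0.05, edgeR adjusted p = 4.45e-05). ATF4 stood at 214, 227 and 250.1 CPM in the 3 control libraries and 300.1, 291 and 288 CPM with sh50 (log2 change 0.35, SE 0.06, edgeR adjusted p = 7.71e-05). ASNS, asparagine synthetase, stood at 34.6, 43.6 and 45.4 CPM in the 3 control libraries and 60.5, 60.1 and 58.6 CPM with sh50 (log2 change 0.53, SE 0.09, edgeR adjusted p = 6.18e-05). PSAT1, of serine synthesis, fell under sh50 (log2 change -0.30, SE 0.06, edgeR adjusted p = 0.000697) and was higher under sh50 than under sh52 (log2 difference 0.54, SE 0.06, edgeR adjusted p = 1.79e-06). Against sh52, HSPA5 and HSP90B1 were lower by -0.28 and -0.31.

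Among enzymes of sulfation, glucuronidation and aldehyde oxidation, 7 of 16 fell and 3 rose. ALDH2, the mitochondrial aldehyde dehydrogenase, stood at 50.2, 48.8 and 45.6 CPM in the 3 control libraries and 27.5, 30.8 and 29.6 CPM with sh50 (log2 change -0.72, SE 0.08, edgeR adjusted p = 6.22e-07), with 42.5, 44.8 and 39.4 CPM under sh52 (log2 difference -0.53, SE 0.09, edgeR adjusted p = 0.000147). PAPSS2, which makes the sulfate donor, stood at 105, 106 and 95.6 CPM in the 3 control libraries and 59.2, 63.7 and 68.7 CPM with sh50 (log2 change -0.67, SE 0.07, edgeR adjusted p = 1.84e-07). WARS1, a tRNA synthetase that interferon gamma induces, stood at 104, 106 and 95.5 CPM in the 3 control libraries and 68.6, 70.1 and 75.6 CPM with sh50 (log2 change -0.51, SE 0.07, edgeR adjusted p = 2.18e-06) and was lower than under sh52 by a log2 difference of -0.42 (SE 0.07, edgeR adjusted p = 8.8e-05). Of the 20 cytosolic tRNA synthetases 3 fell and 2 rose, beside 11.3% and 10.2% of all genes. Only 1 fell without sh50 replicate 2 or control replicate 2. The list of 43 ubiquitin-specific proteases, the family of USP13, also counts USP6NL, which is not a protease. Of the 43 genes, 8 fell, USP13 among them, and 3 rose. Apart from USP13 and USP18 they included USP46 (log2 change -0.44, SE 0.10, edgeR adjusted p = 0.00168) and USP25 (log2 change -0.34, SE 0.07, edgeR adjusted p = 0.00103), and among those that rose was USP36, a nucleolar enzyme (log2 change 0.30, SE 0.07, edgeR adjusted p = 0.00112). The 8 were 4 or 5 without sh50 replicate 1 or 2, sh52 replicate 2 or 3, or control replicate 1 or 2, and the 3 were 1 without sh50 replicate 2 or control replicate 1 or 2 and 5 without sh52 replicate 1.

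Other stress lists held fewer called genes. Of 25 NRF2 and oxidative stress genes, 8 fell and 2 rose, the 2 being 1 without sh50 replicate 1 or 2 or control replicate 2. FTH1, the ferritin heavy chain, stood at 3339, 3468 and 3522 CPM in the 3 control libraries and 2642, 2622 and 2556 CPM with sh50 (log2 change -0.40, SE 0.04, edgeR adjusted p = 1.34e-07). MT2A, a metallothionein, stood at 551, 580.5 and 569 CPM in the 3 control libraries and 409.8, 403 and 459 CPM with sh50 (log2 change -0.42, SE 0.07, edgeR adjusted p = 4.25e-05). Heat shock proteins gave 6 higher and none lower of 23, a count of 3 without sh50 replicate 1 or control replicate 2 and 10 without sh52 replicate 1, and DNAJB1 rose by 0.32. Proteasome subunits gave 6 lower and none higher of 32, a count of 1 without sh50 replicate 2 or control replicate 2 and 2 without sh50 replicate 3. Of 34 autophagy and lysosome genes, 5 fell and 2 rose, 1 without sh50 replicate 2 or control replicate 2. The counts of these stress lists stand beside 11.3% of all genes that fell and 10.2% that rose. NEU1, the lysosomal sialidase, stood at 346, 341 and 343 CPM in the 3 control libraries and 271, 249 and 254 CPM with sh50 (log2 change -0.41, SE 0.06, edgeR adjusted p = 4.11e-06). LAMP1, a lysosomal membrane protein, fell (log2 change -0.29).

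The study sets USP13 beside ZHX2, and the ZHX2 experiment shares no library with the sh50 comparison. ZHX2 mRNA stood at 158, 149 and 157 CPM in the 3 control libraries and 136, 134 and 133 CPM with sh50. It fell by 0.20 in log2 units (SE 0.06, edgeR adjusted p = 0.00859). Among the 13597 genes tested in the ZHX2 experiment, 2161 fell under both ZHX2 hairpins (15.9%) and 1923 rose under both (14.1%). Of the 2148 genes lower under both that were tested here, 529 fell under sh50 (24.6%) and 130 rose (6.1%), with a median log2 change of -0.09. Of the 1812 genes higher under both, 351 rose (19.4%) and 172 fell (9.5%), with a median of 0.08. Over the 13175 genes tested in both experiments, 11.6% fell and 10.5% rose under sh50. ANGPTL4 rose by 3.76 and 3.51 on the log2 scale under the ZHX2 hairpins and by 2.53 under sh50, and MMP7 fell by 2.32, 1.99 and 1.85. Other genes went opposite ways: IL7R rose by 3.61 and 1.47 under the ZHX2 hairpins and fell by 1.99 under sh50, VCAM1 rose by 0.64 and 0.57 and fell by 1.67, and RCAN2 fell by 4.40 and 1.21 and rose by 1.26. These are counts of genes, with no test of the overlap and no matching for level. From the lowest to the highest of 5 bins of mean level, the share that fell under sh50 went from 3.1% to 25.5%. The share that rose went from 3.1% to 15.4%.

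Of 16 described USP13 partners and substrates, 7 fell and 1 rose. They included STING1, ACLY and ZHX2, each described above.

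The called genes were counted by level, GC content, transcript length, chromosome and gene type. Over 5 equal bins of the mean level in the 6 libraries, the share of genes that rose was 3.1%, 9.8%, 10.3%, 12.3% and 15.4% from the lowest to the highest, and the share that fell was 3.1%, 6.2%, 8.6%, 13.2% and 25.5%. In the highest bin, from 87.6 CPM upwards, genes that fell outnumbered those that rose, 698 to 422. Over 5 equal bins of transcript GC content (12550 genes, 91.6% of those tested), the share that rose went from 5.4% at the lowest GC content to 15.6% at the highest and the share that fell from 14.1% to 8.2%. The median log2 change went from -0.05 to 0.06 over the same bins, and under sh52 from -0.01 to -0.003. From the shortest to the longest of 5 equal bins of effective transcript length, the share that rose went from 11.3% to 8.8%. The share that fell went from 8.2% to 13.4%. On chromosome 19, 145 of 965 genes rose (15%) and 42 fell (4.4%; median 0.11), and of 440 zinc-finger genes named ZNF, many of which lie on that chromosome, 53 rose and 7 fell (median 0.12 under sh50 and also under sh52). Without control replicate 2 the zinc-finger count was 33. Of 856 long non-coding RNAs 69 rose (8.1%) and 28 fell (3.3%), and of 298 transcribed pseudogenes 41 rose (13.8%) and 10 fell (3.4%), beside 10.2% and 11.3% of all genes.

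**Figure D5:**
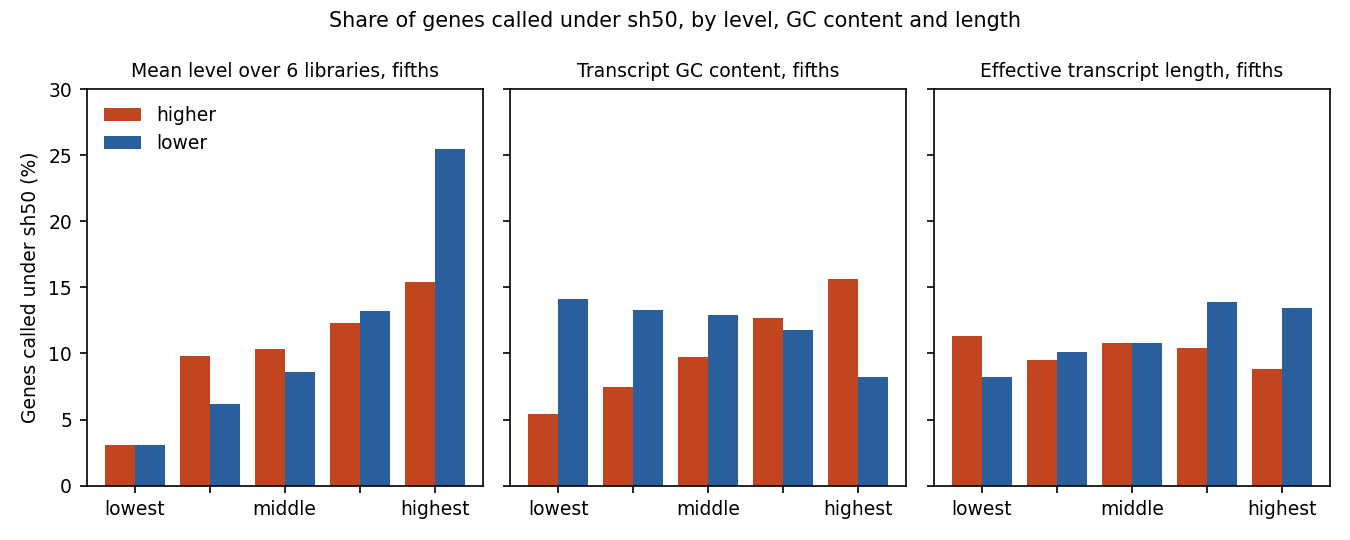
Share of genes that rose and that fell under sh50 (percent) in 5 equal bins of mean level, of transcript GC content and of effective transcript length. The share that fell climbs with level to 25.5% in the highest bin, and the share that rose climbs with GC content to 15.6%.

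Short matches to a hairpin's seed were counted because a hairpin can lower mRNAs other than its target. The 7 bases AATTGAT of the sequence listed for sh50 were in the 3′ UTR of 1452 genes, of which 229 fell (15.8%) and 103 rose (7.1%), with a median log2 change of -0.05. Of 11070 genes without them, 11.6% fell and 10.6% rose. The same count with the sh52 seed AACTCAT, a hairpin absent from these cells, gave 1253 genes of which 17.0% fell and 6.1% rose under sh50. Genes with an sh50 match had longer 3′ UTRs (median 2954.5 against 831 bases) and lower GC content (41.4% against 50.7%). Among genes in the longest of 3 equal groups by 3′ UTR length, 16.0% of 1086 genes with the sh50 match fell and 5.2% rose, against 14.5% and 8.4% of 3088 genes without it. A match does not show that a hairpin acts there.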

How the data were processed

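The series holds RNA-seq of 18 libraries of 786-O cells; the 9 of the USP13 experiment (3 each of sh50, sh52 and shCtrl) were fitted together. The deposited files hold, per the file headers, 1 line for each RefSeq transcript as Salmon writes it, with estimated counts, TPM and effective lengths. The submitters' processing notes list build hg19 with Salmon 0.11.3, STAR 2.5.2b, DESeq2 1.14.1 and cutadapt 1.12, without saying what each did. The deposited estimated counts carry no depth scaling and were whole within 1e-06; the deposited TPM values were not used, and the deposited effective lengths (in bases, another measure than the counts) served only as offsets in an alternative.

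Counts were rounded and summed to 27063 genes. Of 60422 transcripts per file, 1342 were repeat copies, 59301 were named from RefSeq and 684 from GENCODE release 29, and 437 stayed unnamed (0.0854% to 0.1204% of counts, left out). edgeR 4.0.16 (R 4.3.3) was used with filterByExpr, TMM scaling and the quasi-likelihood F-test, fitting a mean for each of the 3 groups over the 9 libraries, Benjamini-Hochberg adjustment over 13708 genes and a threshold of 0.05. The standard error was taken as the change divided by the root of the F value. The fit was also run on simulated counts with far fewer changed genes than were called here, so its outcome is not used as support. Alternatives were DESeq2 1.42.0, limma-voom (limma 3.58.1), other scaling factors, other filters, effective lengths, omission of mitochondrial rRNA, the sh50 and control libraries alone, a replicate block and omission of each library. Replicate numbers do not pair the libraries: deviations of same-numbered libraries correlated at -0.103 to 0.054. Replicate pairs differed by more than counting noise (chi-square per degree of freedom 2.636 to 5.563 in the control and sh50 groups).

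The gene lists, the members and the rule for named genes were chosen with earlier results of these data known. Named were the 15 largest changes each way at 5 CPM or more in the higher group, the 6 largest in CPM, the 8 largest that also differed from sh52, up to 4 genes with the smallest p per list and 2 the other way, and named regulators; further list members were named after their values were seen, and some genes are not reported here. Hairpin matches used GENCODE transcripts on GRCh38, and promoters were RefSeq's on GRCh38.p14 (80.2% of the genes tested), whereas the authors' build was hg19, per the submitters' processing notes.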

Additional observations from a re-analysis of the deposited data

Results flagged for a closer look

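For 20 genes, of which 19 are given here, the hairpins differed in direction: each passed against control under both sh50 and sh52, with opposite signs, and the direct comparison of sh50 with sh52 passed as well (edgeR). The control libraries are shared by both changes; in the direct comparison they enter only the scaling and the estimate of the spread. All log2 values in the next sentences are differences of sh50 minus sh52.

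Lower than control under sh50 and higher under sh52 were 13 genes. Among acute-phase, complement and apolipoprotein L genes the differences were -1.97 for SAA1, -1.34 for C3, -0.48 for APOL1 and -0.40 for APOL2. Among genes of the cell surface, matrix and cytoskeleton they were -0.71 for FSTL3, a follistatin relative, -0.67 for FLG, the epidermal protein filaggrin, -0.67 for PDZK1IP1, a membrane protein of the kidney tubule, and -0.36 for ACTB, beta-actin. The others given were UCA1, a long non-coding RNA (-1.31), CD68, a lysosomal protein (-0.89), PLCB4, a phospholipase (-0.70), and SLC2A1, the glucose transporter (-0.54).

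Higher than control under sh50 and lower under sh52 were 7 genes. The differences were 0.81 for ZNF503, a zinc-finger repressor, 0.56 for CKS2, a cofactor of cyclin-dependent kinases, and 0.43 for STMN1, a regulator of microtubules in dividing cells. For secreted proteins they were 0.47 for LTBP3, which binds latent TGF-beta, 0.46 for CLU, clusterin, 0.44 for ADAMTS15, a matrix protease, and 0.38 for IGFBP7, an insulin-like growth factor binding protein.

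Against control, some of these calls under sh50 ended when single libraries were left out (edgeR). ADAMTS15 did not pass without control replicate 2 (adjusted p = 0.221) or any 1 sh50 library (0.0609 to 0.0695), and IGFBP7 did not pass without control replicate 1 or 2 or any 1 sh50 library (adjusted p between 0.0543 and 0.216). STMN1 was lost without control replicate 1 or 3 or sh50 replicate 1 or 2 (adjusted p between 0.0589 and 0.195). CKS2 was lost without control replicate 1 or sh50 replicate 1 or 2 (adjusted p between 0.0868 and 0.13), APOL2 without sh50 replicate 1 (0.0655) and LTBP3 without control replicate 2 (0.0778).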

How the results depend on the processing

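The fall of USP13 passed under every alternative tried, with log2 changes from -1.021 to -0.867 when single libraries were left out. The number of genes called under sh50 was 2841 with DESeq2, 2984 with limma-voom, 2955 without mitochondrial rRNA and 3419 with the sh50 and control libraries alone. It ranged from 2043 to 3556 when single libraries were left out, the highest without sh52 replicate 1, where all 2942 genes were called again. Genes that rose ranged from 903 to 1717 (903 without control replicate 1, 913 without control replicate 2) and genes that fell from 1115 to 1839. The count for sh50 against sh52 ranged from 684 to 1512. With upper-quartile factors 51.7% of the called genes were higher, against 47.4%, and the median of all genes was 0.015.

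The replicate block gave 2698 called genes, of which 2674 were among the 2942, and 1183 in place of 1401 between the hairpins; since the replicate numbers do not pair the libraries, it served as a check only, and among the genes named in the text it ended the call of IGFBP7 only (edgeR, adjusted p = 0.0676). Of 165 genes named in the text and called under sh50, 158 stayed called in all 19 alternatives. ISG20 and IFI35, called under none of the alternatives, changed sign: ISG20 had log2 changes of -0.062 with effective lengths and -0.067 to 0.141 when single libraries were left out (below 0 without sh50 replicate 3, -0.012, or control replicate 1), and IFI35 of -0.1 to 0.052 (above 0 without sh50 replicate 3). Depth limits the low end: of the 2742 genes with the lowest mean level (up to 5.47 CPM), 3.1% rose and 3.1% fell.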
